A study of Mus musculus with 12 samples.

Results

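The 9 genes described here carry mutations in Usher syndrome and are 9 of the 56748 entries of the deposited table. They were followed over 12 libraries from the mouse retina. The genes are Myo7a, Ush1c, Ush1g, Cdh23, Pcdh15, Cib2, Adgrv1, Whrn and Clrn1, and their rows were taken by gene name. Myo7a was chosen by its lower level in the knockout in these same libraries, so its difference between genotypes is described below without a test, and the question asked was whether the other 8 genes, named partners here, differed as well. The knockout mice, named Abca4Ko as in the study, carried RiboTag, Abca4-/- and i75-Rod-Cre, and their littermate controls carried RiboTag and i75-Rod-Cre. All animals were 2 months old, and both genotypes held the tagged ribosomal protein and the rod Cre, so no library comes from a retina without them. The Cre is driven in rods, while Abca4-/- is not limited to rods. Each genotype gave 3 libraries of rod TRAP, which is RNA pulled down with the tagged ribosomes, and 3 of the whole retinal lysate, named retina here, for 4 groups of 3. The labels do not say whether the replicates came from separate animals, so each p-value measures the spread between these libraries, which may be technical.

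Usher syndrome joins hearing loss with a slow loss of photoreceptors. Myosin VIIa, the product of Myo7a, is an actin motor that in the retina moves melanosomes in the retinal pigment epithelium (RPE) and takes part in the traffic of opsin through the photoreceptor cilium. In the hair bundle of the inner ear the proteins made by these genes work as a complex: cadherin 23 and protocadherin 15 form the tip link, harmonin (Ush1c) and SANS (Ush1g) are scaffolds that tie it to myosin VIIa, and CIB2 is a calcium-binding part of the transduction channel. Adgrv1, a very large adhesion receptor, and whirlin (Whrn), a PDZ scaffold, belong to another complex, found at ankle links in hair cells and around the base of the photoreceptor cilium, and clarin-1 (Clrn1) is a small membrane protein.

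Values are scaled counts, which are read counts that the authors multiplied so that libraries of a fraction have nearly the same total, 17096515 to 17097707 in rod TRAP and 17860761 to 17862326 in retina. They are therefore not the original depth, which is unknown here, and intervals made from them cover counting error only and are approximate. The deleted gene was checked first. Abca4 was at 53193 to 61017 scaled counts in the control rod TRAP libraries and at 195, 365 and 13156 in Abca4Ko replicates 1, 2 and 3. In retina it was at 37619 to 38929 in control and at 153, 366 and 8124 in Abca4Ko. The library labelled Abca4Ko replicate 3 thus held 23.5% of the control mean in rod TRAP and 21.3% in retina, and several results below are given with and without it. The 10 rod markers summed to 209595 to 240528 CPM (scaled counts per 1e6 after rescaling) in rod TRAP and 62910 to 117191 in retina. The 8 markers of Muller glia summed to 122 to 218 CPM in rod TRAP and 3159 to 4843 in retina, and the 12 markers of RPE to 6.58 to 21.2 and 87.3 to 754. The 8 markers of cones fell less, with 488 to 680 CPM in rod TRAP and 1118 to 1680 in retina. Rod TRAP was therefore enriched in rod messages and still held some of others, cones among them.

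The genes were very unequal in rod TRAP. By TPM, which divides by transcript length and so lets genes be compared, Pcdh15 stood highest in control rod TRAP with 103 ± 11.5 TPM (SD, n = 3), before Whrn with 84.0 ± 6.99 and Adgrv1 with 56.3 ± 1.72. Myo7a followed with 10.4 ± 2.47 TPM. The libraries of neighbours in this order did not overlap. Cib2 came next at 0.6, 0.9 and 0.3 TPM, overlapping with Clrn1 at 0.1, 0.1 and 0.3, and Cdh23, Ush1c and Ush1g were listed at 0 in every control rod TRAP library. In control retina Whrn led with 99.7 ± 12.0 TPM, and Adgrv1, Pcdh15 and Cib2 lay between 20.2 and 21.0 with overlapping neighbours. Myo7a was at 14.0 ± 1.39 TPM there, below Cib2 and above Clrn1 with 2.30 ± 0.458, Ush1g with 1.67 ± 0.666, Ush1c with 0.267 ± 0.208 and Cdh23 with 0.233 ± 0.153. Clrn1 and Ush1g overlapped, and so did Ush1c and Cdh23.

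**Figure D1:**
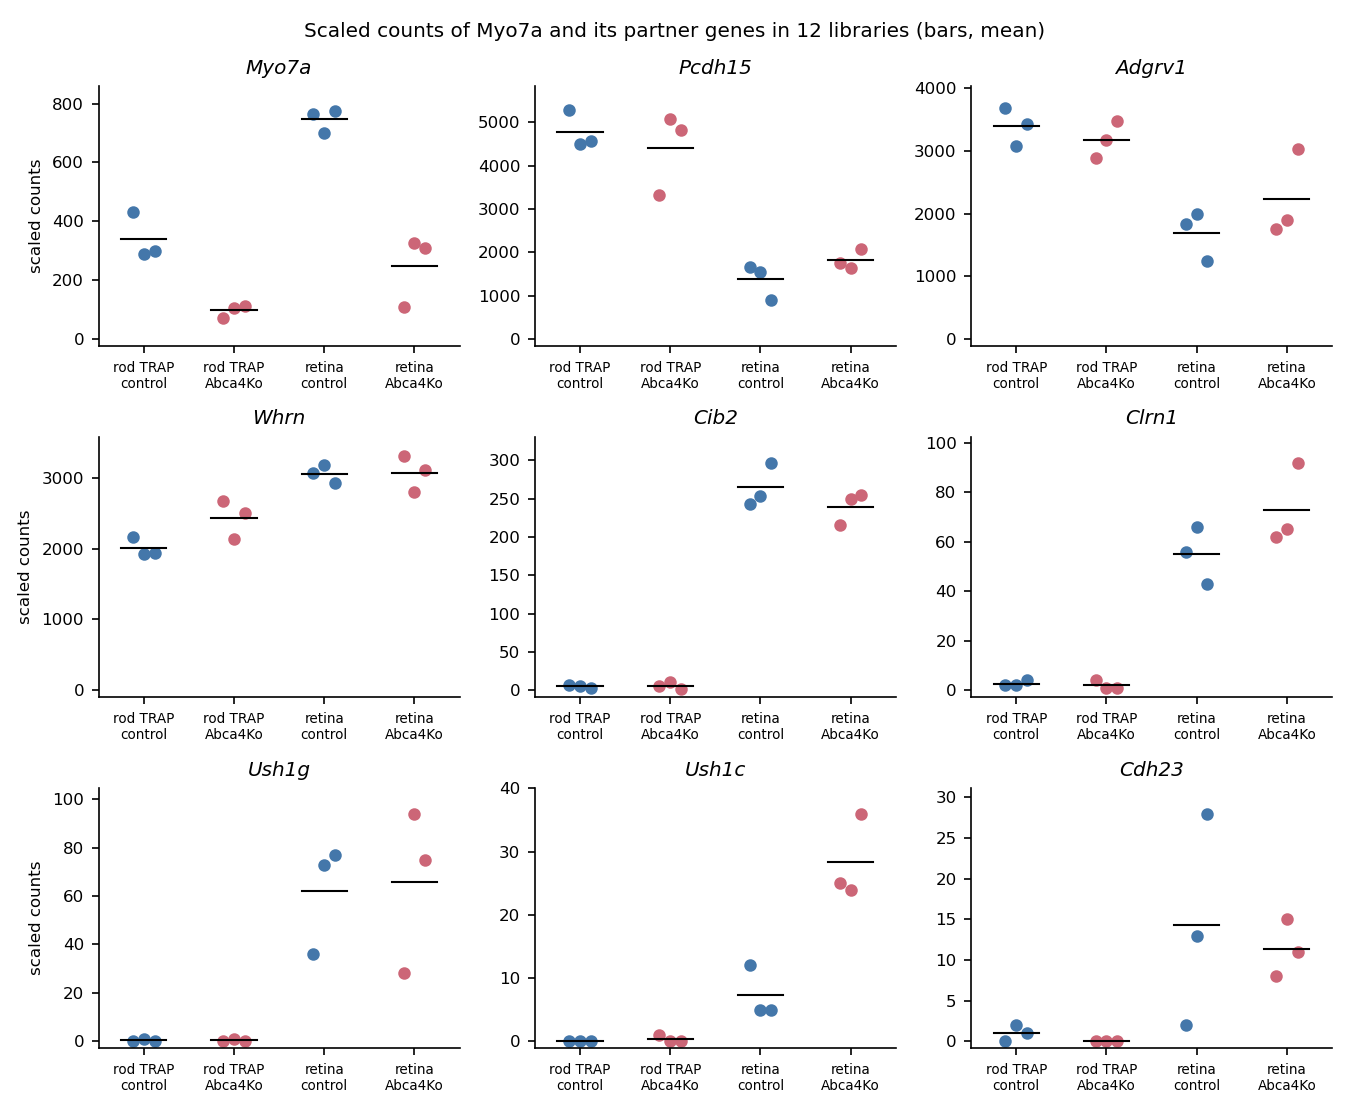
Scaled counts (vertical axis, linear, 1 panel per gene) of Myo7a and its 8 partners in the 12 libraries, with points for libraries, short lines for the mean of 3, blue for control and red for Abca4Ko. Myo7a is below control in all Abca4Ko libraries of both fractions, while Pcdh15, Adgrv1 and Whrn overlap between genotypes in both.

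Myo7a was lower in Abca4Ko in both fractions. In rod TRAP it was at 432, 288 and 298 scaled counts in control replicates 1, 2 and 3 and at 73, 106 and 113 in Abca4Ko. The highest Abca4Ko library was below the lowest control library, and the Abca4Ko mean was 28.7% of the control mean. On the log2(CPM + 0.5) scale the difference was -1.71 ± 0.18 (SE). In retina Myo7a was at 765, 701 and 776 in control and at 108, 327 and 311 in Abca4Ko, again without overlap, and the Abca4Ko mean was 33.3% of control. The log2 difference there was -1.70 ± 0.31, close to that in rod TRAP. By scaled counts Abca4Ko replicate 1 was the lowest library in both fractions, with 14.5% of the control mean in retina against 43.8% and 41.6% in replicates 2 and 3. Without replicate 1 the log2 difference was -1.57 in rod TRAP and -1.28 in retina, and without the library labelled Abca4Ko replicate 3 it was -1.79 and -1.87. The level of Myo7a in that library, 113 and 311, was near that of replicate 2. By TPM all Abca4Ko libraries were again below control, with 13.0, 10.0 and 8.1 in control against 2.1, 1.6 and 2.9 in Abca4Ko rod TRAP, and 12.8, 15.5 and 13.6 against 2.0, 5.7 and 5.3 in retina. The lowest Abca4Ko library by TPM was replicate 2 in rod TRAP and replicate 1 in retina. In bulk RNA, fewer cells of a type and less RNA per cell cannot be told apart.

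RPE cells also make Myo7a, and some RPE comes off with a dissected retina, so RPE markers are given beside it. In retina the summed level of the 12 markers was 300, 301 and 754 CPM in control replicates 1, 2 and 3 and 87.3, 401 and 233 in Abca4Ko. The pigment genes Dct and Pmel weigh most in this sum, with control retina means of 165 and 121 CPM against 3.30 for Rpe65. Abca4Ko replicate 1 was lowest in this sum and in Myo7a, but single markers of the list went both ways in it. Rpe65 (157 scaled counts) and Lrat (40) were there the highest of the 6 retina libraries. Dct (68) and Pmel (38) were the lowest. Abca4Ko replicate 1 also stood apart in other lists, with 683 CPM of the 12 markers of inner neurons against 952 to 1224 in control. Its 117191 CPM of the rod markers was the highest of the 6 retina libraries. Abca4Ko replicate 2 had 401 CPM of RPE markers and 327 scaled counts of Myo7a. In rod TRAP the 12 markers summed to 6.58, 10.9 and 21.2 CPM in control and to 9.73, 12.5 and 9.01 in Abca4Ko. The ranges overlapped there. The part of RPE, inner neuron or rod RNA in the Myo7a values was not tested. All 12 markers were above 0 in each group. None of the 12 RPE markers tested in retina passed the test in limma, where 0.106% of all genes were called. Their median log2 difference was -0.73. At an unadjusted p under 0.05 was 1 of them, against 2034 of 16964 genes.

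**Figure D2:**
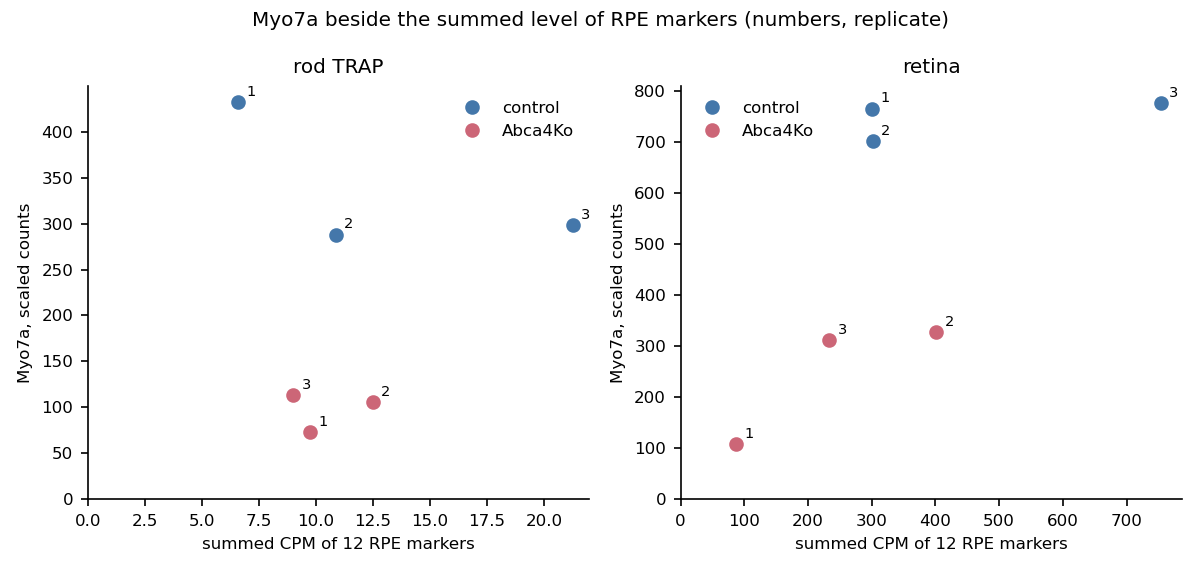
Scaled counts of Myo7a (vertical axis) against the summed CPM of 12 RPE markers (horizontal axis) in rod TRAP and in retina, 1 point per library with its replicate number, blue for control and red for Abca4Ko. Abca4Ko points lie below control points on the vertical axis. In retina, Abca4Ko replicate 1 is lowest on both axes, although the single markers Rpe65 and Lrat were highest in that library.

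The sequence before the start sites is shown for Myo7a, because it is the gene that differs, and for Pcdh15, the partner with the highest TPM in control rod TRAP. It comes from RefSeq on GRCm38.p6, an older build than the GRCm39 of the deposited tables, and covers 250 bases up to each start, written 5′ to 3′ on the strand of the gene. Capitals mark TGCTGA on either strand, a half-site of the kind bound by the rod factor NRL. No window holds TAATCC, the core bound by CRX and OTX2, on either strand. Myo7a has 2 starts, at chr7:98119494-98119743 and chr7:98109249-98109498, minus strand, and Pcdh15 has one at chr10:73821617-73821866, plus strand.
Myo7a start 1: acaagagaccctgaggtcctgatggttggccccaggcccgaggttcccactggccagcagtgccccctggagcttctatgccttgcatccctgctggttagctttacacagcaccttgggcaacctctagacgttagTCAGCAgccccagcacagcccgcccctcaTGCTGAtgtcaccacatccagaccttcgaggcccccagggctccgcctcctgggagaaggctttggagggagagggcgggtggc
Myo7a start 2: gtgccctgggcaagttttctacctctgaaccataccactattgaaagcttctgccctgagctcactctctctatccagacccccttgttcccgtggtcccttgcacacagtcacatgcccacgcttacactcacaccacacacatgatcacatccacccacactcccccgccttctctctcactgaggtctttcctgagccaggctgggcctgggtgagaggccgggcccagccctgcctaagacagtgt
Pcdh15: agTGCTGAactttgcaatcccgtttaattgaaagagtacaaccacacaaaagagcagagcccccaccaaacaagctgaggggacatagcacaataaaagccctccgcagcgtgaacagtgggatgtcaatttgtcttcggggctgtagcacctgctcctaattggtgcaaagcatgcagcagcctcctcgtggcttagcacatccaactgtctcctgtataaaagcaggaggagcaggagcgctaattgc
The first Myo7a window holds the half-site 2 times, 113 and 84 bases before the start and on opposite strands, and the Pcdh15 window holds it 1 time, 248 bases before. Of 32851 such windows, 16.1% hold TGCTGA and 6.25% hold TAATCC. Windows were found for 8 of the 9 genes, 9 windows in all, and 2 of these hold TGCTGA and 0 hold TAATCC. A match of letters is a description and says nothing of binding.

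The partners were then compared between genotypes. In rod TRAP, 3 of the 8 partners had enough counts to be tested, at least 10 in at least 3 libraries, and 0 passed the limma test at an adjusted p under 0.05, with 1 at an unadjusted p under 0.05. Over all 13104 genes tested, 1.09% were called and 1366 were at an unadjusted p under 0.05. The deleted gene Abca4 was itself not called by limma in either fraction. In each it was called in 1 of 15 alternatives, without the library labelled Abca4Ko replicate 3 (limma adjusted p = 1.68e-06 in rod TRAP and 2.30e-08 in retina). A lack of calls therefore does not show that a gene is unchanged. Pcdh15 was at 5284, 4489 and 4567 scaled counts in control and at 3322, 5084 and 4812 in Abca4Ko. Replicate 1 of Abca4Ko was low and the other two lay within the control range. Its log2 difference was -0.13 ± 0.13 (SE), with a 95% confidence interval of -0.41 to 0.15 and a limma adjusted p of 0.778. Without Abca4Ko replicate 1 it was 0.020. Adgrv1 was at 3682, 3070 and 3434 in control and at 2887, 3167 and 3479 in Abca4Ko, and the genotypes overlapped. Its log2 difference was -0.09 ± 0.09, interval -0.29 to 0.11, limma adjusted p = 0.791. Whrn was at 2163, 1926 and 1939 in control and at 2670, 2143 and 2498 in Abca4Ko, where 2 libraries were above the control range. Its log2 difference of 0.28 ± 0.11 had an interval of 0.04 to 0.52 and an unadjusted p under 0.05, but a limma adjusted p of 0.400. Of these 3 partners 0 had libraries that did not overlap between genotypes, against 17.6% of all genes tested.

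The other 5 partners were near 0 in rod TRAP. In rod TRAP, control libraries held 7, 6 and 3 scaled counts of Cib2 and Abca4Ko libraries 5, 10 and 2. For Clrn1 they were 2, 2 and 4 against 4, 1 and 1. Ush1g had 1 count in 1 library of each genotype. Ush1c had 1 count in Abca4Ko replicate 1 and 0 in the other libraries, and Cdh23 had 3 counts in control and 0 in Abca4Ko. No difference between genotypes could be detected at these levels.

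In retina all 8 partners were tested and 0 passed the limma test, where 0.106% of 16964 genes were called. At an unadjusted p under 0.05 there was 1, Ush1c, against 2034 of all genes. Ush1c was at 12, 5 and 5 scaled counts in control and at 25, 24 and 36 in Abca4Ko, so the lowest Abca4Ko library held more than the highest control library. It reached 10 counts in 3 libraries only through Abca4Ko, the group where it is high, so its limma result cannot serve as support. Its log2 difference of 1.21 is therefore given without an interval or an adjusted p. An unclassified transcript on the other strand, Gm9860, overlaps Ush1c, with means of 4.33 scaled counts in Abca4Ko retina and 0.667 in control. The library kit does not mark strand, so reads of the pair cannot be told apart. Clrn1 was at 56, 66 and 43 in control and at 62, 65 and 92 in Abca4Ko, overlapping, with a log2 difference of 0.36 ± 0.23, interval -0.16 to 0.88, and a limma adjusted p of 0.505. Without the library labelled Abca4Ko replicate 3 this difference was 0.25.

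Pcdh15 in retina was at 1668, 1555 and 905 in control and 1758, 1648 and 2079 in Abca4Ko, which overlapped, with control replicate 3 low. The log2 difference was 0.45 ± 0.23, interval -0.05 to 0.96, limma adjusted p = 0.426. Adgrv1 was at 1841, 1988 and 1248 in control and 1758, 1893 and 3025 in Abca4Ko. Its high library was Abca4Ko replicate 3 and its low one control replicate 3, and the log2 difference was 0.38 ± 0.22, interval -0.10 to 0.87, limma adjusted p = 0.462. Without the library labelled Abca4Ko replicate 3 this difference was 0.20. Whrn was at 3065, 3189 and 2928 against 3308, 2799 and 3113, a log2 difference of 0.01 ± 0.17 with an interval of -0.37 to 0.39. Cib2 was at 243, 254 and 297 against 215, 249 and 255, a difference of -0.13 ± 0.19, interval -0.56 to 0.29. Ush1g was at 36, 73 and 77 against 28, 94 and 75, with replicate 1 low in both genotypes, and its interval ran from -0.82 to 0.82. Cdh23, at 2, 13 and 28 against 8, 15 and 11, was the least certain, with an interval of -0.92 to 0.83. A gene on the other strand, Vsir, overlaps Cdh23 and had more counts, 58.3 and 74.0 on average in Abca4Ko and control retina. On the rescaled log2 scale 2 of the 8 partners, Ush1c and Clrn1, did not overlap between genotypes in retina and were higher in Abca4Ko, against 19.9% of all genes tested. Of these, Ush1c had passed the filter only through Abca4Ko. Leaving out the library labelled Abca4Ko replicate 3 gave 0 partners called in either fraction.

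**Figure D3:**
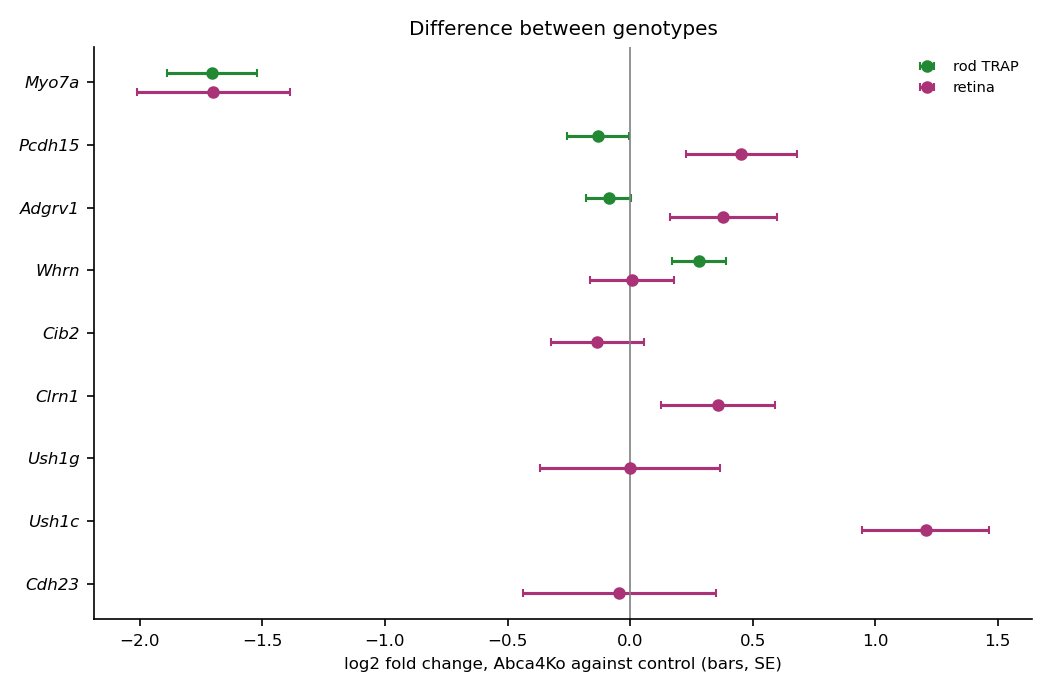
Log2 fold change between genotypes (horizontal axis, Abca4Ko against control, on the log2(CPM + 0.5) scale) of the 9 genes in rod TRAP (green) and retina (purple), with bars for SE; genes without a green point had too few counts in rod TRAP. Myo7a lies at -1.71 and -1.70, the other points between -0.13 and 1.21. Ush1c passed the filter in retina only through Abca4Ko.

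The genotype difference was also compared between fractions, in a fit of all 12 libraries. Of the 8 partners 0 passed the limma interaction test for a different genotype effect in rod TRAP and retina, where 0.00579% of 17273 genes were called. At an unadjusted p under 0.05 was 1, Ush1c, against 1952 of all genes. Ush1c had the largest value of the partners, -1.05 on the log2 scale, and it is at 0 or 1 count in every rod TRAP library. It passed the filter only through Abca4Ko retina, so this value mirrors its retina difference and its adjusted p is not given. Pcdh15 and Adgrv1 were on the minus side in rod TRAP and on the plus side in retina, and their interaction values were -0.61 ± 0.29 and -0.49 ± 0.25, with limma adjusted p of 0.455 and 0.471. Neither passed the test.

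The fractions were compared within each genotype. Pcdh15 and Adgrv1 were called higher in rod TRAP than in retina in both genotypes by limma, and Myo7a was called lower in control. Over all genes, 36.6% of 16286 were called higher in rod TRAP and 38.8% lower in control, and 30.4% and 33.7% of 16036 in Abca4Ko, so such calls are common. In control 7 members passed the filter and in Abca4Ko 8. Pcdh15 was higher in rod TRAP by 2.54 ± 0.19 on the log2 scale in control and by 1.85 ± 0.18 in Abca4Ko (limma adjusted p = 7.36e-08 and 7.09e-06). Adgrv1 was higher by 1.73 ± 0.16 and 1.15 ± 0.17 (4.37e-07 and 0.000166, limma). These members were therefore richer in rod ribosome RNA than in the lysate in both genotypes. The 2 fraction comparisons do not share libraries, but rod TRAP and retina libraries of the same number deviated together, as given with the processing. The limma values here do not use that pairing.

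Cib2, Clrn1, Ush1g and Ush1c lay the other way. They passed the filter only through retina, where they are high, so that their limma calls had to follow and are not given; values and counting intervals are. Cib2 was at 243, 254 and 297 scaled counts in control retina against 7, 6 and 3 in rod TRAP, and the rescaled level was 32.2 times higher in retina, with a counting interval of 19.7 to 56.6. In Abca4Ko it was 27.7 times higher (17.2 to 47.8). Clrn1 was 13.4 times higher in retina in control (6.63 to 31.5) and 23.9 times in Abca4Ko (10.8 to 65.9). Ush1g, with 1 count in rod TRAP of each genotype, was 121 times higher in control retina, but counting alone allows 21.4 to 4792 times. Ush1c had 1 count in Abca4Ko rod TRAP, 55.7 times below retina with a counting interval of 9.73 to 2225. In control it was at 0 in the 3 rod TRAP libraries, so its level there was at least 1.60-fold lower than in retina, taken at a floor of 3 counts per library. Cdh23 was not tested, and by the same floor was at least 2.46-fold lower in rod TRAP of Abca4Ko.

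Myo7a stood between these. In control it was at 432, 288 and 298 in rod TRAP and at 765, 701 and 776 in retina, and after rescaling it was lower in rod TRAP by a log2 value of -0.44 ± 0.17 (limma adjusted p = 0.0294). The call was lost without rod TRAP control replicate 2 (-0.34, adjusted p = 0.139), rod TRAP control replicate 3 (-0.36, 0.122) or retina control replicate 1 (-0.49, 0.0639). In Abca4Ko the value was -0.58 ± 0.32, which did not pass (limma adjusted p = 0.138). With the replicate block it was called, with an adjusted p of 0.0133, and without retina Abca4Ko replicate 1 it was -1.07 with an adjusted p of 0.00242. Whrn was not called, at 0.10 ± 0.11 in control and 0.27 ± 0.17 in Abca4Ko, with limma adjusted p of 0.429 and 0.202. Under the authors' own scaling the median of all genes, -0.029 in control and 0.0044 in Abca4Ko, becomes -0.62 and -0.49. Whrn is then at -0.54 in control, which is called lower (limma adjusted p = 0.000763), and at -0.27 in Abca4Ko, so its direction and its call depend on the scaling. Pcdh15 and Adgrv1 stayed higher in rod TRAP.

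**Figure D4:**
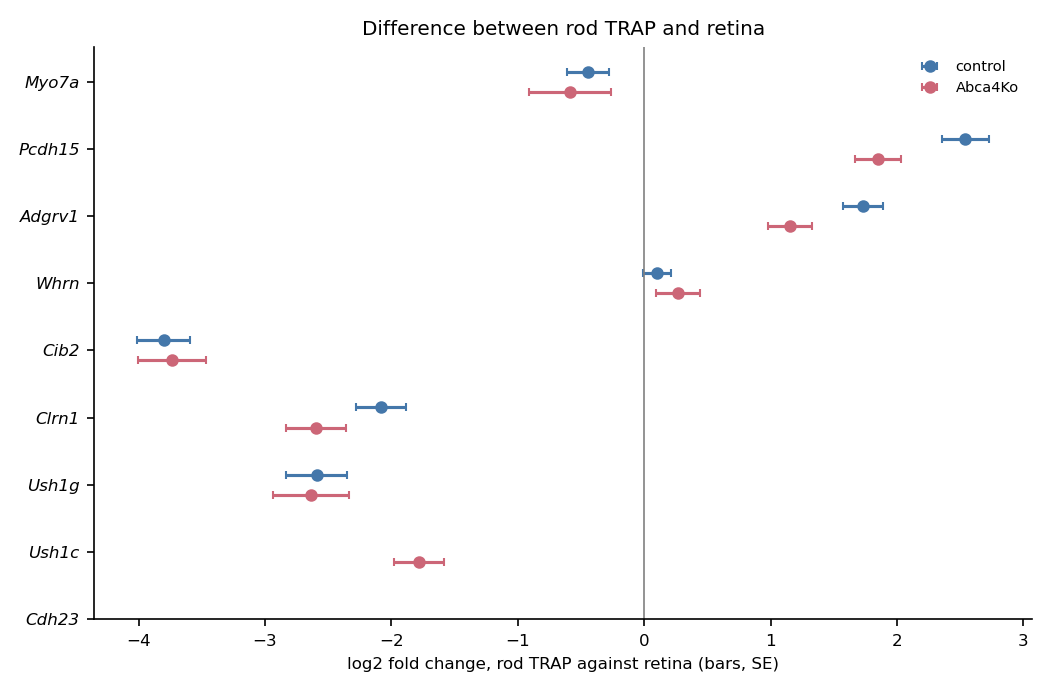
Log2 fold change between rod TRAP and retina (horizontal axis, rod TRAP against retina, on the log2(CPM + 0.5) scale) of the 9 genes in control (blue) and Abca4Ko (red), with bars for SE; genes without a point had too few counts to be tested, and Cib2, Clrn1, Ush1g and Ush1c passed the filter only through retina. Pcdh15 and Adgrv1 lie on the rod side and Cib2, Clrn1 and Ush1g on the retina side in both genotypes.

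Genes that act beside these were described from lists. The other genes of Usher and Usher-like disease (Pdzd7, Abhd12, Hars, Cep250, Cep78 and Arsg) gave 0 of 6 called between genotypes in rod TRAP and 0 of 6 in retina by limma. Over all genes 1.09% and 0.106% were called, so 0 of 6 is near that share. At an unadjusted p under 0.05 were 0 in each, against 1366 of 13104 genes in rod TRAP and 2034 of 16964 in retina. The median log2 differences of the 6 were -0.0092 and -0.13 against 0.00044 and -0.022 over all genes. Pdzd7, a whirlin-like scaffold, had 14 to 25 counts in rod TRAP of control and 16 to 21 in Abca4Ko. Of the 12 binding partners listed for myosin VIIa and the Usher proteins (Myrip and Rab27a of the melanosome link, Vezt, calmodulins and others), 10 passed the filter in rod TRAP and 11 in retina. Of these 0 were called by limma in either, again near the 1.09% and 0.106% of all genes. Without rod TRAP Abca4Ko replicate 1, 1 was called there, when 591 of 12936 genes were. At an unadjusted p under 0.05 were 2 in rod TRAP and 1 in retina. Those in rod TRAP, Calm3 at 0.25 and Vezt at 0.18, and the one in retina, Cask at 0.52, were chosen after their values were seen.

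Among the hair bundle genes 1 of 5 tested was called in rod TRAP, where 1.09% of all genes were, and 0 of 8 in retina by limma, where 0.106% were. At an unadjusted p under 0.05 were 2 of those 8, against 2034 of 16964 genes. Espn, which codes for the actin bundler espin, was at 65, 61 and 70 scaled counts in control rod TRAP and 114, 106 and 169 in Abca4Ko, without overlap, and its log2 level rose by 0.88 ± 0.18 (limma adjusted p = 0.0479). The adjusted p was 0.136 without rod TRAP Abca4Ko replicate 3 and 0.216, 0.274 and 0.172 without control replicates 1, 2 and 3, so this call is at the edge. The intermicrovillar adhesion complex, which uses the relative Myo7b in gut and kidney, had 0 of 5 genes with enough counts in rod TRAP and 1 in retina, which was not called (limma). Of the 22 other unconventional myosins 11 had enough counts in rod TRAP and 1 was called, against 1.09% of all genes (3 without Abca4Ko replicate 1, when the count over all genes went from 143 to 591). In retina 19 had enough and 0 were called by limma, against 0.106% of all genes. At an unadjusted p under 0.05 were 3 of the 11 in rod TRAP, against 1366 of 13104 genes. In retina 4 of the 19 were, against 2034 of 16964 genes. Myo5b, a motor of recycling endosomes, was at 387, 239 and 223 scaled counts in control rod TRAP and at 73, 105 and 102 in Abca4Ko, without overlap, and its log2 level fell by 1.48 with an SE of 0.20 (limma adjusted p = 0.00684). In retina it was at 470, 470 and 339 against 273, 454 and 456, overlapping, with a log2 difference of -0.13 ± 0.21. Myo1g, named after its values were seen, was lower in value in all Abca4Ko libraries of both fractions, -1.06 ± 0.25 in rod TRAP and -1.31 ± 0.28 in retina, but did not pass (limma adjusted p = 0.0946 and 0.210). The study itself lists Myo1g among the rod genes that differ. Myo6, also named after its values were seen, lay the other way. It was higher in all Abca4Ko libraries of both fractions, by 0.21 ± 0.08 and 0.78 ± 0.21, and did not pass (limma adjusted p = 0.361 and 0.400). In retina Myo9a was also higher without overlap and Myo18b lower, and neither was called.

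**Figure D5:**
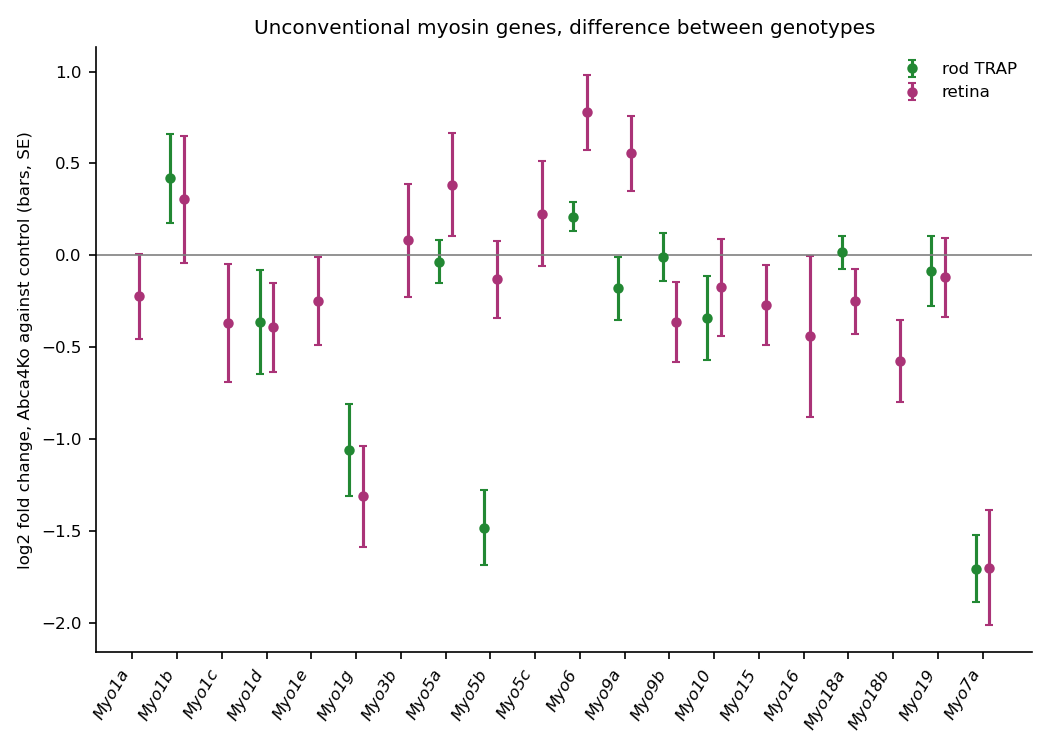
Log2 fold change between genotypes (vertical axis, Abca4Ko against control, on the log2(CPM + 0.5) scale) of the unconventional myosin genes tested, in rod TRAP (green) and retina (purple), with bars for SE. Myo7a and Myo1g are low in both fractions, Myo5b is low in rod TRAP, Myo6 is above 0 in both, and most others lie within 0.5 of 0.

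The genes next to Myo7a on chromosome 7 were also looked up. The 5 nearest protein-coding genes on each side that passed the filter in rod TRAP were taken (Aamdc, Rsf1, Clns1a, Aqp11 and Pak1 before it, Acer3, Emsy, Thap12, Uvrag and Dgat2 after it). By limma 0 of 10 were called between genotypes in rod TRAP and 0 of 10 in retina. Over all genes 1.09% and 0.106% were called, so 0 of 10 is near that share. At an unadjusted p under 0.05 were 2 in each, against 1366 of 13104 genes in rod TRAP and 2034 of 16964 in retina. The log2 differences of these neighbours lay between -0.17 and 0.56 in rod TRAP, and between -0.25 and 0.65 in retina. Without rod TRAP Abca4Ko replicate 1, 1 of them was called, when 591 of 12936 genes were. Ush1c, on the same chromosome, is described above.

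The genes most like Myo7a over the 12 libraries were found by Pearson's r of the log2 levels, among 12084 genes with a mean of at least 5 CPM in 1 group. They were Nmnat3 (r = 0.937), Arhgef7 (0.926), Sirt5 (0.923), Abhd14a (0.922) and Cd276 (0.922). Each was lower on average in Abca4Ko in both fractions. This follows from the choice, as Myo7a was itself chosen by its lower level in Abca4Ko. The means and r of these 5 genes are therefore description only. Nmnat3, which codes for an NAD-making enzyme of mitochondria, had means of 5.94 CPM in control and 2.69 in Abca4Ko rod TRAP and of 6.02 and 2.90 in retina. Abhd14a had means of 35.2 and 18.9 CPM, and of 43.8 and 21.1. Within rod TRAP alone the 5 values of r ran from 0.905 to 0.974 and within retina from 0.909 to 0.988, each over 6 libraries of which 3 share a genotype, so the points are not independent. Among the partners r ran from -0.618 for Whrn to 0.333 for Cdh23.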

How the data were processed

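RNA was measured in 12 libraries, from ribosome-bound RNA of rods (10 ng) and retinal lysate (5 ng) of mice perfused with cycloheximide, amplified with a low-input kit. The submitters' processing notes name CASAVA 1.8.2, HISAT2, DESeq2, edgeR and the build GRCm39, with no role or order. The authors deposited a table of scaled counts, a score that holds read counts multiplied to a common total within a fraction and rounded, and a table of TPM to 1 decimal. Columns were matched between the tables by name, and all 12 were closest to the column of the same name (r at least 0.915, 10297 genes). Since the score is not a raw count, the planned count test was replaced by limma 3.58.1 (trend, robust; R 4.3.3) on log2(CPM + 0.5), rescaled by trimmed means of M values (trims 0.3 and 0.05), for genes with at least 10 scaled counts in at least 3 libraries. Tests are two-sided with Benjamini-Hochberg adjusted p under 0.05 over all genes, checked on simulated data. Each comparison used its own 6 libraries, and the interaction all 12. Ratios of summed counts have exact binomial intervals at 95%.

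The members and gene lists were chosen with earlier results of these data known. Named genes are the members, Pdzd7 and Abca4, up to 5 called genes per list with at least 1 CPM, the 5 genes most like Myo7a and its 5 neighbours on each side. Rod TRAP and retina libraries of the same replicate number deviated together (r 0.160 to 0.433 in all 6 pairs). Of the 6 rod TRAP libraries, 5 correlated best with the retina library of their own number within their genotype. Numbers were therefore taken to pair the fractions. Same-numbered libraries of the 2 genotypes did not deviate together (r -0.394 to 0.0120). Alternatives were other scalings, filters, pseudocounts, TPM, a replicate block, all 12 libraries and each library left out. Gene order and start sites come from RefSeq on GRCm38.p6. One further gene of the naming rule is not reported here. Figures used matplotlib.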

Additional observations from a re-analysis of the deposited data

How the results depend on the processing

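The lower level of Myo7a in Abca4Ko kept its direction in 15 of 15 alternatives in each fraction, between -1.83 and -1.49 in rod TRAP, and between -1.94 and -1.28 in retina. Myo7a was chosen by this difference in these same libraries, so these values describe the processing and are no support for the difference. No partner was called in rod TRAP under 15 alternatives. In retina 1 was, with all 12 libraries, namely Ush1c, which passed the filter only through Abca4Ko retina, where it is high. The number of all genes called in rod TRAP (143) was 47 with log2(TPM + 1), 94 with all 12 libraries and 30 to 591 with 1 library left out, where 591 is without Abca4Ko replicate 1, and leaving out control replicate 1, 2 or 3 gave 37, 30 or 33. In retina (18) it was 33 with no filter, 9 with at least 50 scaled counts, 38 with log2(TPM + 1), 62 with all 12 libraries, and 1 to 21 with 1 library left out, lowest without Abca4Ko replicate 1. With the replicate block the retina count was 46; same-numbered genotypes share only a number, and the block moved no partner past the threshold. The interaction count (1) was 3 with log2(TPM + 1). Between fractions, genes of the 9 called in control (6) were 2 to 6 and in Abca4Ko (6) 3 to 6 with 1 library left out; dropping a retina library leaves fewer of them past the filter, which needs 3 libraries, and 3 and 4 of the calls are genes that passed only through retina. All genes called in Abca4Ko (10280) were then 6444 to 9820. The replicate block raised the Abca4Ko count to 7 by adding Myo7a.

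Values near 0 changed sign in some settings, and the cause was not tested. Between genotypes in rod TRAP, Pcdh15 was -0.23 to 0.020 with 1 library left out. In retina, Ush1g was -0.0067 with log2(CPM + 0.1), -0.0041 with all 12 libraries and -0.28 to 0.38 left out; Cdh23 was 0.11 with log2(CPM + 0.1) and -0.50 to 0.39 left out; Whrn was -0.041 with log2(TPM + 1) and -0.13 to 0.10 left out. Between fractions, Whrn in control was -0.54 with the authors' scaling, -0.011 with median-of-ratios scaling, -0.24 with log2(TPM + 1) and -0.038 to 0.13 left out, and in Abca4Ko -0.27 with the authors' scaling and -0.076 with log2(TPM + 1). Calls for Espn were lost in 9 of 15 alternatives and for Myo5b in 1, log2(TPM + 1), at an adjusted p of 0.149. The control fraction call of Myo7a was lost in 5 of 15, with adjusted p from 0.000118 to 0.139 over the 15. Genes that did not reach 10 scaled counts in 3 libraries were not tested, which leaves 5 partners in rod TRAP without a genotype test.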
